A study of Mus musculus with 60 samples.

Results

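The genes followed here are 10 genes used to name the pyramidal cells of the hippocampal CA fields. They are Wfs1, Fibcd1, Pou3f1, Mpped1 and Spink8 for CA1, Bok, Nectin3 and Iyd for CA3, and Pcp4 and Rgs14, which are better known as markers of the small field CA2. A peak was taken for one of them when the deposited annotation assigned it that gene symbol. The 10 genes were among 16994 genes with a peak in any list, and they held 168 of 256375 peaks, 58 of H4K8ac and 110 of H3K27me3.

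The peaks came from CUT&RUN-seq, in which an antibody guides a nuclease to a histone mark inside isolated nuclei. Nuclei were purified from the hippocampus of male Emx1-NuTRAP mice, offspring of an Emx1-IRES-Cre line and a line with a Cre-dependent nuclear and ribosomal tag, so every group carried both alleles. From postnatal day 21 to 41 the mice lived with a running wheel (early-life exercise, ELE, called exercised below) or in standard cages (sedentary). In the SIT arm, nuclei and RNA were taken at once from both hippocampi of a mouse, and in the left separate and right separate arms nuclei alone were taken from 1 hippocampus. The labels give 60 samples in 18 groups, with 4 samples per SIT group, 3 per separate group and 20 IgG controls that were not used here. There was 1 peak list for each mark, condition and arm, 12 in all. A list holds positions and assigned genes for a group, so the read depth behind it is unknown and it has no replicate value. The study left out 3 exercised separate samples and 1 exercised SIT sample of H4K8ac, so those lists do not stand for all samples of their groups. The 2 shortest H4K8ac lists are the exercised separate ones.

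H4K8ac is an acetylation of histone H4 found at active promoters and enhancers, and H3K27me3 is the methylation that Polycomb complexes place over silent genes, often in broad domains. Pyramidal neurons of the CA fields and granule cells of the dentate gyrus share their glutamatergic identity but differ in sets of field genes such as these. Emx1 drives Cre in pyramidal and granule cells alike, so a peak here belongs to no single field. Neurons that carry a mark and neurons that do not were mixed in each list, so fewer marked cells and less mark per cell cannot be told apart.

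The neuron label was checked against marker lists. Of 10 pan-excitatory genes, 8 to 10 had an H4K8ac peak in each list and 1 or 2 had an H3K27me3 peak. Of 10 GABAergic genes, 1 to 4 had H4K8ac and 7 to 9 had H3K27me3. Of 10 dentate granule genes, 6 to 9 had H4K8ac and 4 to 7 had H3K27me3. Astrocyte genes had H4K8ac for 2 to 7 of 10 and H3K27me3 for 4 to 6, oligodendrocyte genes for 1 to 3 and 4 to 6, and microglial and endothelial genes for 2 to 4 and 3 to 6. Of 7 other CA field genes, 2 to 4 had H4K8ac, and 1 had H3K27me3 in each list. Excitatory genes thus led for H4K8ac and GABAergic genes for H3K27me3, while peaks at genes of other cell types were also listed, and their part in the values below was not tested.

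Several stretches of sequence show the DNA behind the peaks described below, read on the coding strand from the RefSeq promoter windows (250 bases before to 50 after a start) or, for peaks, from the GRCm38.p6 genome, which is mm10. CpG pairs are in capitals. The Bok window lay in H4K8ac peaks, the first Mpped1 window in no peak of either mark, and the next Mpped1 window in H3K27me3 peaks. The last ones are the centres of stretches that all overlapping lists shared.
Bok promoter, chr1:93685325-93685624, plus strand: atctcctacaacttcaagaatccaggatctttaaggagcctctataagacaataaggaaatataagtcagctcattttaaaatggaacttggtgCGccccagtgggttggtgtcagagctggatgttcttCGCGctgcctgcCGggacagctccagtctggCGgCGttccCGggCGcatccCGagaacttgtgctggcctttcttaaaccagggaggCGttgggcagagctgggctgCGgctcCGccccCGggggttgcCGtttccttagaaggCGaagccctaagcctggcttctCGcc
Mpped1 first promoter, chr15:83779773-83780072, plus strand: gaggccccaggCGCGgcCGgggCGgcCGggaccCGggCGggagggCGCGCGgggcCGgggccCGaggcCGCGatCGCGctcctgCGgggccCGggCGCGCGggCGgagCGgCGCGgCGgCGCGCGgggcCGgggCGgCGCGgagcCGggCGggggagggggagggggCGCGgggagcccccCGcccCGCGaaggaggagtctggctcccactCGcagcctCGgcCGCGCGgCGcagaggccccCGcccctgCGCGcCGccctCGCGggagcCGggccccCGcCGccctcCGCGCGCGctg
Mpped1 next promoter, chr15:83784579-83784878, plus strand: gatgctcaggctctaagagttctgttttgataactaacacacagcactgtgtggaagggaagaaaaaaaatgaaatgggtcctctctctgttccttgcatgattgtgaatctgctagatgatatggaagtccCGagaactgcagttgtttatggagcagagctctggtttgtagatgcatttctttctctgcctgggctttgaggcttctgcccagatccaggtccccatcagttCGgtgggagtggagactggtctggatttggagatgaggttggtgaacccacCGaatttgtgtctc
Fibcd1 upstream H4K8ac region, chr2:31859087-31859386, minus strand: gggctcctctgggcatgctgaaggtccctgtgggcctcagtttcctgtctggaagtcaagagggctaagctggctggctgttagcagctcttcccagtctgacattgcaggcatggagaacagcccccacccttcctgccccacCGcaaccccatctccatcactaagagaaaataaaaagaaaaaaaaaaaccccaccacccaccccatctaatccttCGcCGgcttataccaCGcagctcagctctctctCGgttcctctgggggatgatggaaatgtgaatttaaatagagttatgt
Pcp4 internal H4K8ac region, chr16:96499109-96499408, plus strand: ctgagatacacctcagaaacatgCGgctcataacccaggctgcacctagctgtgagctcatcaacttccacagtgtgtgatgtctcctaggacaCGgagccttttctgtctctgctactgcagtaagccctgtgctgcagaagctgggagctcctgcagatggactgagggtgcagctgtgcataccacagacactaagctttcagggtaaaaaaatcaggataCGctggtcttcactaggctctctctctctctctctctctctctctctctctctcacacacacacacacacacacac

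These stretches differed most in CpG content. The first Mpped1 window held 59 CpG pairs in 300 bases with 89.3% GC, more CpG than 99.9% of the 32851 windows in the table. The next Mpped1 window held 3, with 47.3% GC. The Bok window held 16, more than 67.0% of windows, against a median of 7. The peak centres were CpG-poor, with 5 pairs at Fibcd1 and 3 at Pcp4.

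RefSeq windows were found for 7 genes, 8 windows in all, and each equalled the genome at its position. The windows of Fibcd1, Nectin3 and Wfs1 held 46, 40 and 30 CpG pairs, and no list of either mark had a peak in them. The Nectin3 window lies inside the gene, past the GENCODE start used below, and that start was in an H4K8ac peak in both SIT lists. Of the 4 member windows with at least 30 pairs, all were free of both marks, as were 55.4% of such windows in the table. The cutoff was the lowest CpG number of the Fibcd1, Nectin3 and Wfs1 windows, already known to be unmarked, so the member count tests nothing. Peaks touched 2 of the 8 windows, against 38.8% of the 32851 windows in the table. The Bok window was touched by H4K8ac in 3 lists, both SIT lists and sedentary left, and the next Mpped1 window lay whole in H3K27me3 peaks of 3 lists, both SIT lists and sedentary right.

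Short motifs were searched on both strands of the 8 windows. The GC box GGGCGG was in 5 of them and in 35.7% of all windows, and it occurred 9 times in the first Mpped1 window. CCAAT was in 3 (37.4% of all windows), CAGATG in 2 (17.2%), TGACG in 2 (20.8%) and TATAAA in 1 (13.6%). CAGCTG (16.3% of all windows), ATGCAAAT (1.74%) and TGACGTCA (1.79%), which contains TGACG, were in none. Pou3f1, Spink8 and Rgs14 had no window in the table.

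The first comparison asked which CA field genes carried each mark at all. H4K8ac was listed at 9 of the 10 genes in at least 1 list, every gene but Pou3f1, against 79.9% of all genes. Mpped1, Bok and Nectin3 had it in 6 of 6 lists, against 19.3% of all genes. H3K27me3 was listed at 5 genes, Fibcd1, Pou3f1, Mpped1, Nectin3 and Pcp4, against 43.5% of all genes. Pou3f1, Mpped1 and Pcp4 had it in 6 of 6 lists, against 16.5%.

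By this count the 10 genes fell into 3 kinds. Wfs1, Spink8, Bok, Iyd and Rgs14 had H4K8ac alone, 5 of 10 against 56.5% of all genes. Fibcd1, Mpped1, Nectin3 and Pcp4 had both marks in some list, 4 of 10 against 23.5%. Pou3f1 was the 1 gene with H3K27me3 alone, against 20.1%. These shares of 10 genes are descriptions, and none sets the genes apart from other genes.

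In the single lists, H4K8ac was found at 8 of the 10 genes in exercised SIT (63.2% of all genes), 7 in sedentary SIT (51.0%) and 6 in exercised left (30.0%). It was found at 6 in sedentary left (60.1%), 6 in exercised right (34.1%) and 5 in sedentary right (49.0%). The number of members thus moved between 5 and 8 while the share of all genes ran from 30.0 to 63.2%.

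H3K27me3 was found at 5 of the 10 in exercised SIT (38.1% of all genes), 5 in sedentary SIT (22.5%) and 4 in exercised left (30.6%). It was at 5 in sedentary left (27.5%), 3 in exercised right (20.6%) and 5 in sedentary right (35.4%). No gene outside the 5 named above entered in any list. Fibcd1 was missing from both exercised separate lists and Nectin3 from exercised right.

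**Figure D1:**
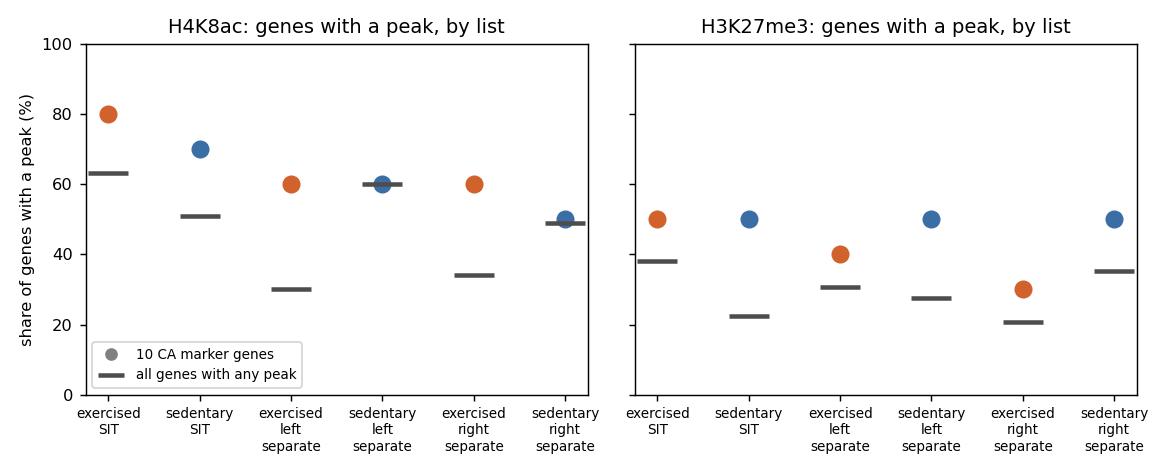
Share of genes with a peak (%) in each of the 12 lists, for the 10 CA marker genes (circles, orange for exercised and blue for sedentary) and for all 16994 genes (dashes). Circles lie between 50 and 80% for H4K8ac and between 30 and 50% for H3K27me3, on or above the dashes, which run from 30.0 to 63.2% and from 20.6 to 38.1%.

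The second comparison, exercised against sedentary within an arm, asked which genes had a mark in 1 condition alone. For H4K8ac in SIT, Wfs1 and Fibcd1 were in the exercised list alone (27.5% of genes with a peak in that arm) and Iyd in the sedentary list alone (10.1%). In left separate, Fibcd1 was in the exercised list alone (3.58%) and Wfs1 in the sedentary list alone (51.9%). In right separate, Pcp4 and Rgs14 were in the exercised list alone (9.14%) and Fibcd1 in the sedentary list alone (36.7%). Wfs1 and Fibcd1 changed sides between arms, so no gene went the same way in all 3 arms.

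For H3K27me3 in SIT, 0 members were in the exercised list alone (41.4% of genes) and 0 in the sedentary list alone (1.02%), with 5 in both. In left separate, 0 were in the exercised list alone (18.5%) and Fibcd1 was in the sedentary list alone (9.13%). In right separate, 0 were in the exercised list alone (3.12%) and Fibcd1 and Nectin3 were in the sedentary list alone (43.6%). By assignment of all peaks, Pou3f1, Mpped1 and Pcp4 were thus shared by both conditions of every arm. With promoter peaks alone, Pcp4 was instead in the exercised list alone in SIT (38.6%), left (20.7%) and right (4.97%). Pou3f1 was then in the sedentary list alone in right (45.7%). Counting any peak over the gene or its start window gave the same for Pcp4 (37.2%, 18.9% and 1.36%) and Pou3f1 (43.5%). There is 1 list for each group, so a gain or loss has no replicate check.

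The covered length of a gene, the summed width of its peaks, was then compared over the 3 arms. For H4K8ac it was higher in exercised in 3 of 3 arms for 0 of 9 members (1.05% of 13585 genes) and lower in 3 of 3 for 0 (7.01%). For H3K27me3 it was higher in 3 of 3 for 0 of 5 members (1.41% of 7399 genes) and lower for 0 (2.12%). With 3 arms, the exact permutation test (two-sided, flipping the signs of the arms) cannot give a p below 0.25, so no gene could pass 0.05. The adjusted p (Benjamini-Hochberg over all genes) was 1 for every member. The difference had opposite signs in 2 arms at 8 of 9 members for H4K8ac (60.9% of genes) and at 5 of 5 for H3K27me3 (74.1%).

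**Figure D2:**
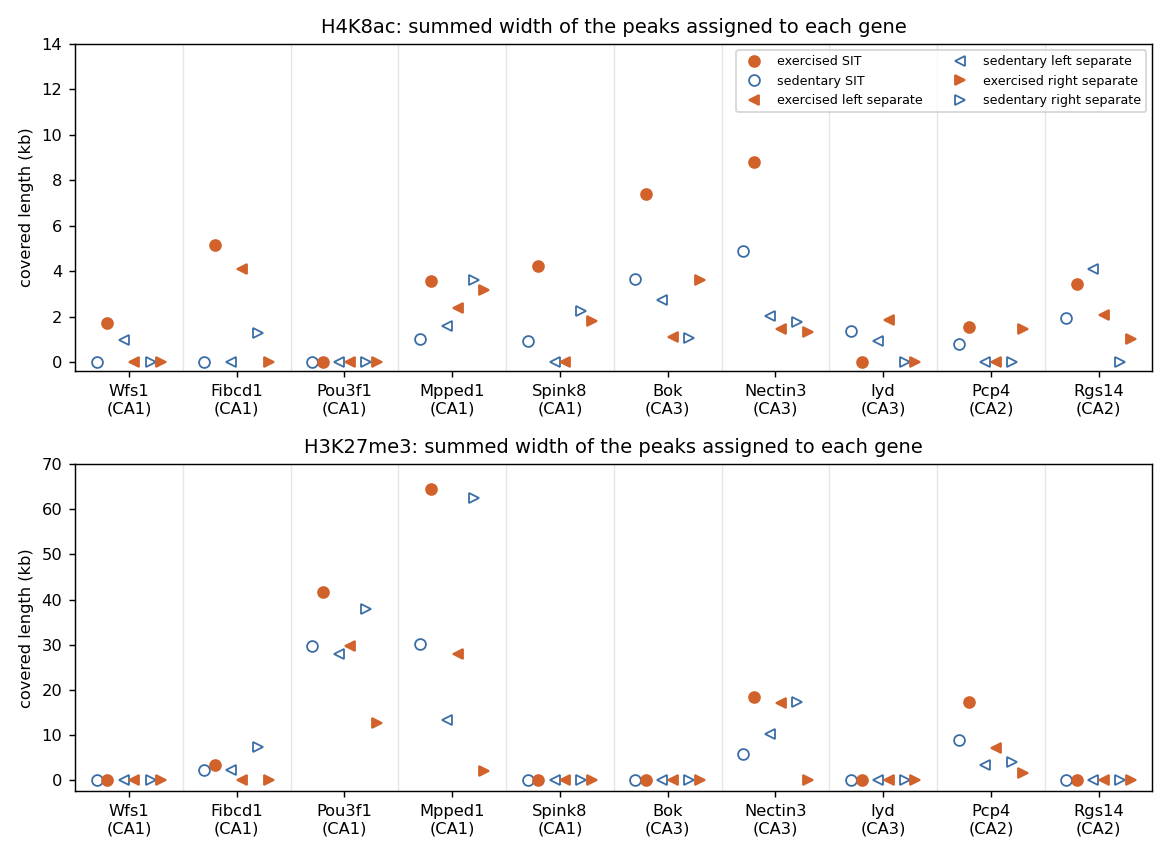
Covered length (kb, summed width of assigned peaks) of each gene in each list, for H4K8ac above and H3K27me3 below, with filled orange marks for exercised, open blue marks for sedentary, circles for SIT and triangles for the left and right separate arms. H4K8ac stays below 9 kb at every gene, while H3K27me3 reaches 41.8 kb at Pou3f1 and 64.5 kb at Mpped1 in exercised SIT, and the colours overlap at every gene with a peak.

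The lengths of the lists are set beside these values. The H3K27me3 lists of exercised and sedentary mice took up 135.6 and 72.3 Mb in SIT, 92.4 and 73.9 Mb in left separate, and 41.2 and 114.5 Mb in right separate. Pou3f1, Mpped1, Nectin3 and Pcp4 were longer in exercised SIT and exercised left and shorter in exercised right, the same order as the lists, while Fibcd1 was shorter in exercised left, against that order. The H4K8ac lists took up 80.3 and 46.4 Mb in SIT, 25.8 and 65.9 Mb in left separate, and 24.5 and 56.1 Mb in right separate. The order of the H4K8ac lists was not followed by Fibcd1, Mpped1 and Iyd in left separate or by Bok, Pcp4 and Rgs14 in right separate, each of which was longer in the shorter, exercised list, nor by Iyd in SIT, listed in the shorter sedentary list alone. The part of list length in the values was not tested, but dividing by it gives another picture of several genes.

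Per Mb of peaks in its list, H4K8ac was higher in exercised in 3 of 3 arms for Mpped1, Bok, Nectin3 and Rgs14, 4 of 9 members against 5.95% of genes, though in covered bases the direction differed between arms for each of them. It was lower in 3 of 3 arms for 0 members (8.64%). Bok had 92.3, 43.2 and 148 bp per Mb in exercised SIT, left and right and 78.4, 41.6 and 19.1 in sedentary. A gene listed in most lists can reach 3 of 3 arms more easily than a gene in few, and the exercised separate lists have the smallest divisors.

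H3K27me3 per Mb was lower in exercised in 3 of 3 arms for Fibcd1 and Pou3f1 (6.76% of genes) and higher in 3 of 3 for Pcp4 (4.64%), where covered bases gave no such order. Pou3f1 had 308, 320 and 306 bp per Mb in exercised SIT, left and right and 411, 379 and 331 in sedentary. At this gene the share of each list was steadier over arms than the covered length, with 306 as the lowest value and 411 as the highest.

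The CA1 genes are taken first. Pou3f1 encodes a POU-domain transcription factor, also called Oct6, and lies at chr4:124656807-124660655 on the plus strand. Its H3K27me3 peaks summed to 41.8 kb in exercised and 29.7 kb in sedentary SIT. They summed to 29.6 and 28.0 kb in left separate and to 12.6 and 37.9 kb in right separate. Exercised right was the low value, the other 5 lists lay between 28.0 and 41.8 kb, and the conditions overlapped.

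The Pou3f1 domain reached far beyond the gene, which is 3.85 kb long. Its 28 peaks fell in 3 regions of overlapping peaks, each present in 6 of 6 lists, as were 16.7% of all 27261 H3K27me3 regions. The regions ran from 46.2 to 35.2 kb upstream, where some peaks were assigned to 4933407E24Rik, from 25.8 to 13.9 kb upstream, and from 12.5 kb upstream to 13.3 kb past the start. Of the 28 peaks, 17 were upstream and annotated to an intron of Gm2164. The start site itself was in a peak in 4 lists, both SIT lists, exercised left and sedentary right. The gene body was covered whole in exercised left and not at all in exercised right.

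Mpped1, which encodes a metallophosphoesterase-domain protein, lies at chr15:83779467-83858494 on the plus strand and had the most H3K27me3 of the 10 genes summed over lists, 200347 bp against 179578 bp at Pou3f1, which had more in both left lists and exercised right. The peaks summed to 64.5 kb in exercised and 30.1 kb in sedentary SIT. They summed to 28.0 and 13.2 kb in left separate. They summed to 1.96 kb in exercised and 62.5 kb in sedentary right. The exercised list was the longer one in SIT and left and by far the shorter one in right, and the 6 values overlap between conditions.

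The widest peak of all 10 genes, 27050 bp in exercised SIT, ran from 0.775 to 27.8 kb past the Mpped1 start. H3K27me3 covered 65.0% of the 79.0 kb gene in exercised SIT, 58.8% in sedentary right and 2.48% in exercised right, where 1 peak of 1963 bp was left. A region from 75.7 to 95.5 kb, over the end of the gene and beyond, was in 4 lists, and some of its peaks were assigned to Efcab6. In sedentary SIT, 1 peak over the gene was assigned to Efcab6, so the summed length there leaves it out. The region from 0.648 to 35.5 kb was covered at some point in 5 lists and the region 12.2 kb upstream of the start also in 5, exercised right missing from both. Between them the CpG-rich first promoter window, printed above, had no peak in any list. Sedentary right was the 1 list with the gene's start site in an H3K27me3 peak, by 5 bases past the site.

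**Figure D3:**
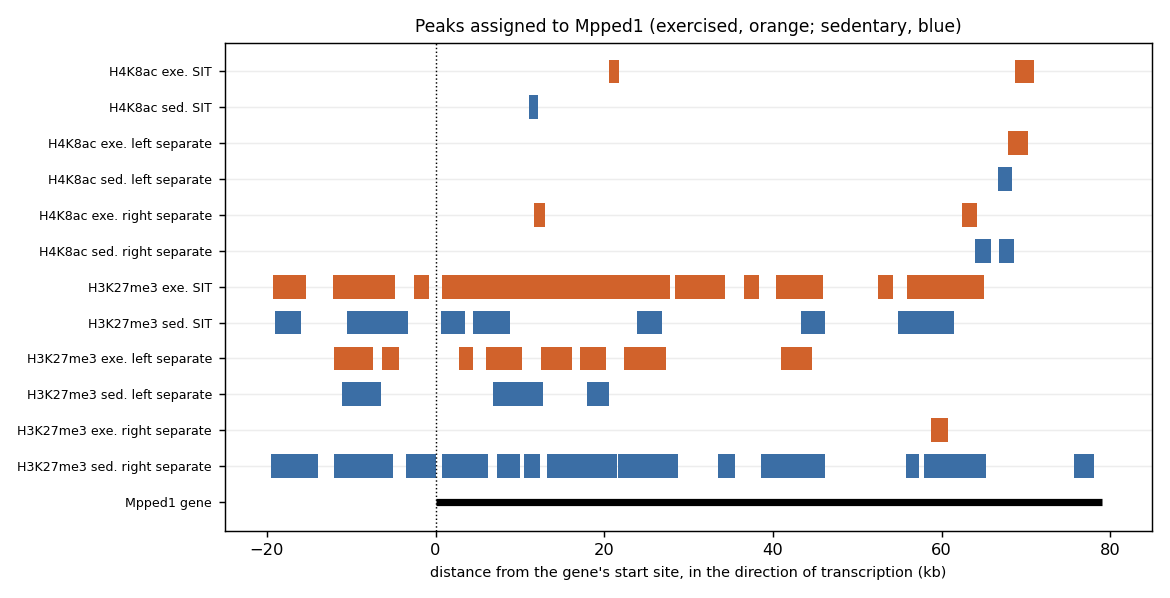
Peaks assigned to Mpped1 in the 12 lists by distance from the start site (kb, in the direction of transcription), exercised in orange and sedentary in blue, with the gene as a black bar. H3K27me3 fills 65.0% of the gene in exercised SIT and 2.48% in exercised right, and H4K8ac lies mostly between 62.4 and 71.0 kb, where H3K27me3 reaches to 65.3 kb.

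H4K8ac was listed at Mpped1 in all 6 lists, with 1 or 2 peaks each. It summed to 3.56 kb in exercised and 1.02 kb in sedentary SIT, and to 2.36 and 1.59 kb in left separate. It summed to 3.18 kb in exercised and 3.63 kb in sedentary right. In intron 2, a run of overlapping peaks from 66.7 to 71.0 kb past the start held 1 peak from each of 4 lists (exercised SIT, both left lists and sedentary right). The exercised SIT peak met the exercised left peak alone, so no base of the run was in all 4. Other peaks lay at 11.1 to 13.0 kb in sedentary SIT and exercised right, at 20.5 to 21.8 kb in exercised SIT, and at 62.4 to 65.9 kb in both right lists.

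Mpped1 was also the 1 gene of the 4 with both marks where they overlapped in the same condition and arm. In exercised SIT an H4K8ac peak of 1250 bp lay whole inside the 27050 bp H3K27me3 peak. In sedentary right an H4K8ac peak of 1858 bp shared 1253 bp (67.4%) with H3K27me3. Of its 9 H4K8ac peaks, 5 touched H3K27me3 of any list. At Pcp4 and Nectin3 the nearest H4K8ac and H3K27me3 peaks of any lists were 2320 and 36718 bp apart. At Fibcd1 they were 15000 bp apart by assigned peaks and 3145 bp apart with the H4K8ac peaks assigned to Qrfp counted.

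Fibcd1 encodes a membrane receptor that binds acetylated structures such as chitin and lies at chr2:31813290-31846005 on the minus strand. Its H4K8ac peaks were all upstream, in intergenic DNA. They summed to 5.15 kb in exercised SIT, 4.10 kb in exercised left and 1.26 kb in sedentary right, with 0 peaks in the other 3 lists. The region from 14.9 to 12.3 kb upstream was in those 3 lists, which shared 1264 bp of it. A further region from 18.6 to 15.7 kb upstream was in exercised SIT and exercised left.

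Some H4K8ac at Fibcd1 was assigned elsewhere. Peaks that overlapped the gene were assigned to the neighbour Qrfp in 4 lists. They covered 12.5% of Fibcd1 in exercised SIT, 5.81% in sedentary left, 4.49% in exercised right and 4.61% in sedentary right. Counted by overlap, Fibcd1 had H4K8ac in both right separate lists, where assignment gave it to the sedentary list alone. In left separate the direction turned, with overlap in the sedentary list alone and assignment in the exercised list alone.

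H3K27me3 at Fibcd1 lay inside the gene, over intron 1 and exon 2 and, in sedentary right, also intron 4. It summed to 3.29 kb in exercised and 2.34 kb in sedentary SIT, and to 2.31 kb in sedentary left and 7.43 kb in sedentary right. Both exercised separate lists had none.

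Spink8, a Kazal-type inhibitor of serine proteases, lies at chr9:109812280-109826633 on the plus strand. It had H4K8ac in both SIT and both right lists and in neither left list. The peaks summed to 4.25 kb in exercised and 0.909 kb in sedentary SIT, and to 1.82 and 2.24 kb in right separate. A region from 0.062 kb before to 2.31 kb after the start was common to these 4 lists. Presence at this gene was the same in both conditions of each arm, though the summed widths differed in SIT and right.

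Wfs1, which encodes the endoplasmic reticulum protein wolframin and lies at chr5:36966104-36989205 on the minus strand, is among the genes most used to mark CA1. Neither mark had a peak over the gene or within 3 kb of its start in any list. The 2 peaks assigned to it were distal H4K8ac peaks, 1721 bp in exercised SIT from 27.8 to 29.6 kb past the start and beyond the end of the 23.1 kb gene, and 985 bp in sedentary left from 8.23 to 7.25 kb upstream. They lay in different places, so Wfs1 had no region found more than once.

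Of the CA3 genes, Bok is a member of the BCL2 family of cell death regulators and lies at chr1:93685660-93695764 on the plus strand. H4K8ac summed to 7.41 kb in exercised and 3.64 kb in sedentary SIT. It summed to 1.12 and 2.74 kb in left separate, and to 3.63 and 1.07 kb in right separate. Exercised SIT was highest, and the exercised list was the longer one in SIT and right and the shorter one in left.

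Of the 10 Bok peaks, 9 were annotated to promoters. The region from 0.700 kb before to 2.61 kb after the start was in 5 lists, all but exercised left, and the start site was in the peak in 3. A second region from 4.69 to 7.53 kb, near an internal start, was in 4 lists, both SIT lists and both exercised separate lists. Another, from 12.8 to 14.5 kb, was in exercised SIT alone. Bok had no H3K27me3.

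**Figure D4:**
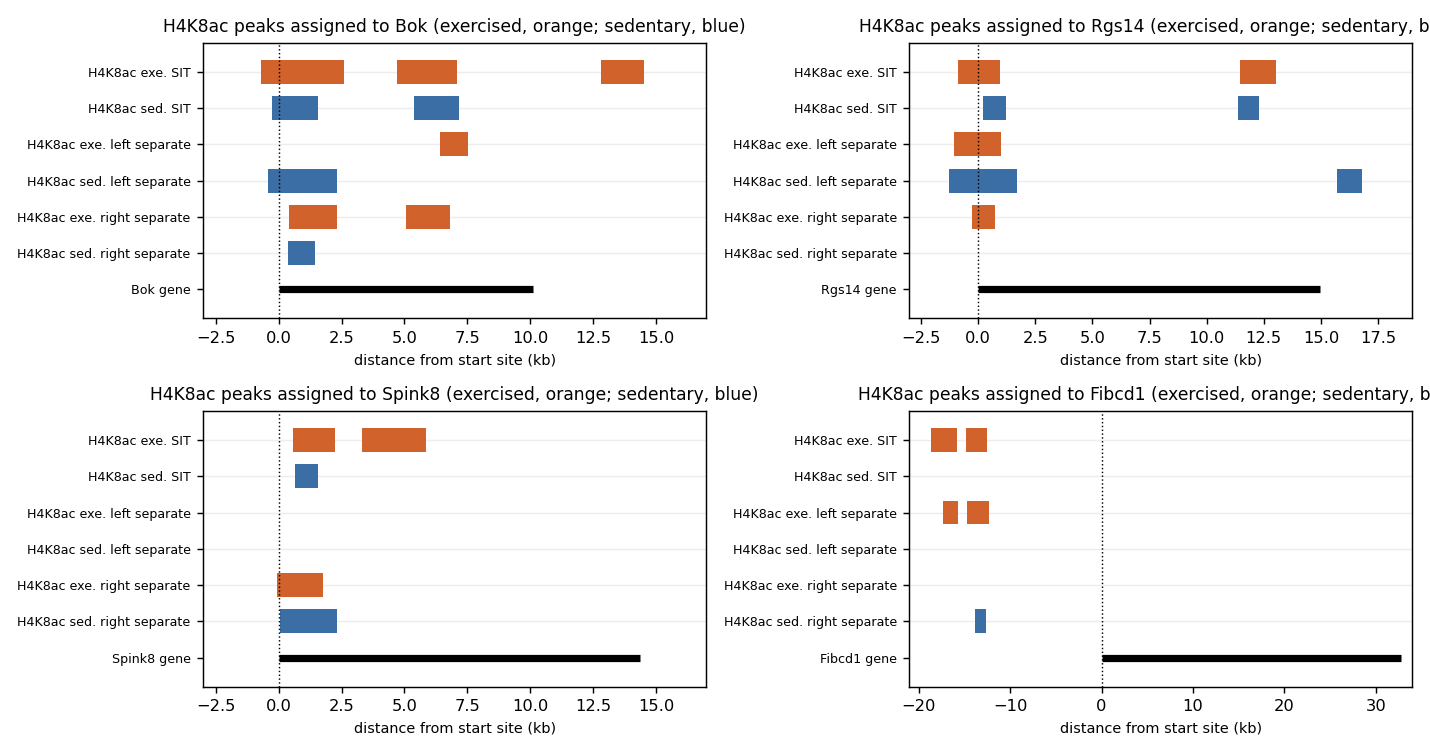
H4K8ac peaks assigned to Bok, Rgs14, Spink8 and Fibcd1 by distance from each start site (kb), exercised in orange and sedentary in blue, with each gene as a black bar. Peaks lie at or just past the start in 5 lists for Bok, 5 for Rgs14 and 4 for Spink8, and 12.3 to 18.6 kb upstream for Fibcd1.

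Nectin3, an immunoglobulin-like cell adhesion molecule, lies at chr16:46387706-46498525 on the minus strand and is the longest of the genes at 110.8 kb. H4K8ac summed to 8.82 kb in exercised and 4.90 kb in sedentary SIT. It summed to 1.46 and 2.02 kb in left separate, and to 1.33 and 1.75 kb in right separate. Both SIT lists were above all 4 separate lists, whatever the condition.

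A run of overlapping H4K8ac peaks in intron 1, from 7.89 to 11.1 kb past the start, held 1 peak from each of 4 lists, both SIT lists and both exercised separate lists. The exercised left and right peaks did not overlap each other, so no base was in all 4. The start site was in a peak in both SIT lists and in no other. A region from 86.9 to 88.7 kb, at an internal start, was in both sedentary separate lists. A peak 768 kb upstream was assigned to Nectin3 in both SIT lists, a distance at which assignment to the nearest gene says little about the gene.

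H3K27me3 at Nectin3 was outside the gene. All 21 peaks were intergenic, from 125 to 213 kb past the start, beyond the end of the gene. They summed to 18.4 kb in exercised and 5.77 kb in sedentary SIT, to 17.2 and 10.3 kb in left separate, and to 0 and 17.3 kb in right separate. Regions at 143.7 to 151.4 kb and at 199.8 to 205.1 kb were each in 5 lists. The H3K27me3 counted for Nectin3 was thus in no list on its promoter or body.

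Iyd, which encodes iodotyrosine deiodinase, lies at chr10:3540240-3554877 on the plus strand. Its 3 H4K8ac peaks were distal, 1377 bp wide in sedentary SIT at 64.0 to 62.6 kb upstream, 937 bp in sedentary left at 32.9 to 32.0 kb and 1850 bp in exercised left at 31.5 to 29.6 kb. No 2 of them overlapped. As at Wfs1, neither mark touched the gene.

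The CA2 genes differed from each other. Rgs14, a regulator of G-protein signalling known to limit plasticity in CA2, lies at chr13:55369732-55384687 on the plus strand and had H4K8ac alone. It summed to 3.44 kb in exercised and 1.95 kb in sedentary SIT, to 2.05 and 4.10 kb in left separate, and to 1.01 and 0 kb in right separate. The region from 1.28 kb before to 1.70 kb after its start was in 5 lists, all but sedentary right. A second region from 11.4 to 13.0 kb was in both SIT lists.

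Pcp4, which encodes a small protein that binds calmodulin, lies at chr16:96467606-96525793 on the plus strand. H4K8ac was absent at its first start and lay at an internal start, from 31.1 to 33.0 kb, as 1 peak of 1558 bp in exercised SIT, 791 bp in sedentary SIT and 1472 bp in exercised right. The 3 peaks shared 509 bp. The printed centre of that stretch holds 1 match each to CAGATG and CAGCTG, which are in 17.2% and 16.3% of promoter windows. The printed Fibcd1 centre holds neither.

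H3K27me3 at Pcp4 summed to 17.3 kb in exercised and 8.89 kb in sedentary SIT, to 7.02 and 3.42 kb in left separate, and to 1.61 and 4.10 kb in right separate. Each sedentary list had 1 peak assigned to Pcp4, upstream of the start between 13.1 and 4.21 kb, in an intron of Igsf5. Exercised peaks upstream of Pcp4 and within it were also annotated to introns of Igsf5. Some other peaks of the upstream region were assigned to Itgb2l. Exercised SIT had 8 peaks and exercised left 3, and these 2 lists alone had H3K27me3 inside the gene, over 17.2% and 5.48% of it. Exercised right had 1 peak, 3.70 to 2.09 kb upstream. The peaks inside the gene were 1835 to 3190 bp wide, against a median of 3270 bp for all H3K27me3 peaks.

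**Figure D5:**
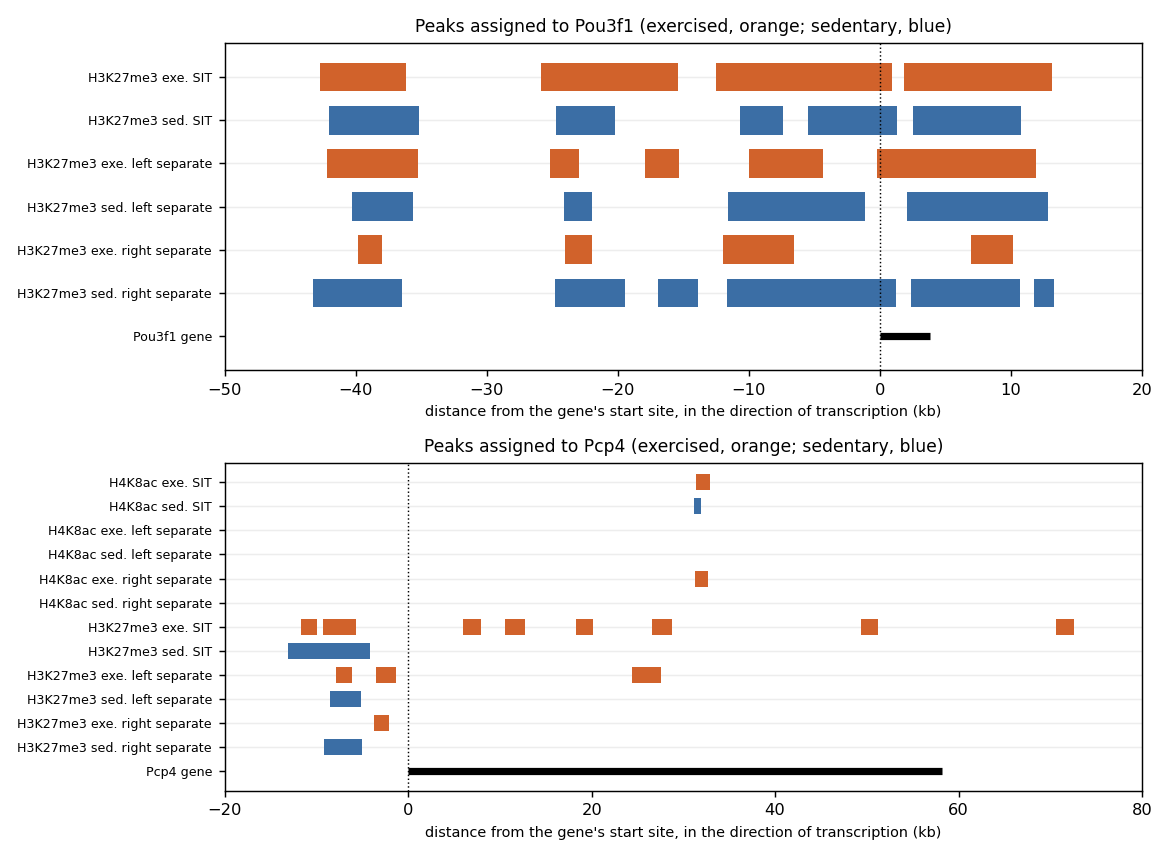
Peaks assigned to Pou3f1 (above, H3K27me3) and Pcp4 (below, both marks) by distance from the start site (kb, in the direction of transcription), exercised in orange and sedentary in blue, with the gene as a black bar. The Pou3f1 peaks fall in 3 regions found in 6 of 6 lists, and within Pcp4 H3K27me3 is drawn for exercised SIT and exercised left alone.

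Positions were compared over all member peaks. Of 58 H4K8ac peaks, 31 (53.4%) were annotated to promoters against 23.5% of all H4K8ac peaks. Another 12 (20.7%) were in introns against 37.4%, 14 (24.1%) in intergenic DNA against 28.3% and 1 (1.72%) in an exon against 7.55%. Of 110 H3K27me3 peaks, 37 (33.6%) were at promoters against 20.3% of all H3K27me3 peaks, and 37 (33.6%) in introns against 20.5%. Another 33 (30%) were in intergenic DNA against 45.3%, 2 (1.82%) in exons against 10.97% and 1 (0.909%) in a 3′ UTR against 2.15%. A promoter here is within 3 kb of any transcript start, so genes with many starts, such as Mpped1 with 11, have more of it. Peaks of 1 gene in several lists are not independent of each other, so these shares are descriptions.

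Member H4K8ac peaks had a median width of 1681 bp (752 to 3310) against 1620 bp for all, and H3K27me3 peaks 3444 bp (1509 to 27050) against 3270 bp. The H3K27me3 median differed between genes, from 2078 bp at Pcp4 to 6095 bp at Pou3f1.

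Recurrence asked how often a region was found again. H4K8ac at the 10 genes formed 27 regions, 12 of them (44.4%) in a single list against 49.9% of all 63514 regions, and 0 in 6 of 6 lists against 5.99%. The 3 genes listed in every H4K8ac list thus had no region common to the 6. H3K27me3 formed 28 regions, 10 of them (35.7%) in a single list against 37.5% of all, and 3 in 6 of 6, all at Pou3f1.

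The last comparison set the arms side by side in sedentary mice, where the study asked about isolation method and hemisphere. For H4K8ac, 3 of the 8 genes in either the left or the right list were in both (Mpped1, Bok and Nectin3), against 63.3% of all the genes in either list. The shared bases were 26.7% of the left and 33.2% of the right member bases, against 43.4% and 51.0% over all peaks. For H3K27me3 all 5 genes in either list were in both, against 69.6% of all the genes in either list, and the shared bases were 91.2% of the left and 40.4% of the right, against 87.4% and 56.4% over all peaks. The H4K8ac shares of member bases were below those of all peaks, and the H3K27me3 shares lay above them for left and below for right.

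Sedentary SIT and left shared 19.6% of the SIT and 23.1% of the left H4K8ac bases at the 10 genes, against 45.9% and 32.3% over all peaks. For H3K27me3 the shares were 49.1% of SIT and 65.9% of left, against 73.4% and 71.7%. Sedentary SIT and right shared 13.6% of the SIT and 19.9% of the right H4K8ac bases, against 46.5% and 38.4% over all peaks. For H3K27me3 the shares were 85.9% of SIT and 51.0% of right, against 89.6% and 56.6%. No test was made of these shares, since each list is a single unit.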

How the data were processed

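CUT&RUN-seq for H4K8ac and H3K27me3 was made in Emx1-NuTRAP hippocampal nuclei. Per the study's methods and the submitters' processing notes, the authors checked reads with FastQC 0.11.9, aligned them to mm10 with Bowtie2 2.4.1, called peaks with SEACR in its stringent setting, kept the top 1% of peaks, and annotated them with ChIPseeker 1.8.6. The deposited lists hold positions, widths, annotation class and assigned gene, with 1 list per group. How libraries were joined is not given in the sources used here, and no count, signal, score or depth is held, so strength and its error cannot be given.

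Peaks were selected by gene symbol. Counts, summed widths, classes, distances from the GENCODE M21 gene start (31 of 31 member transcripts had the listed coordinates), overlaps of at least 1 bp and regions joined over the 6 lists of a mark were computed in Python 3.11.15 with numpy 2.4.6 and pandas 2.3.3, and sequence was read with samtools 1.23.1. Figures were drawn with matplotlib 3.10.9. Background shares are over all 16994 genes with a peak, or over genes with a peak in the arm or mark compared. Covered length was compared within arms for every gene by an exact permutation test (two-sided) that flips the signs of the 3 arms, with Benjamini-Hochberg adjustment over all of them. Interval functions were tested on simulated data and matched base-by-base results in 50 of 50 random sets each. The 10 genes, the marker lists and the motifs were chosen with earlier results of these data known. The rule for named genes was that each of the 10 is named, and no other gene unless the annotation gives it to a peak at a member. Alternatives were other peak classes, assignment by overlap, equal list lengths, scaling by covered Mb and other rules for joining peaks. The IgG samples were not used here. The sequence of 1 peak region is not reported here.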

Additional observations from a re-analysis of the deposited data

Results flagged for a closer look

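The exercised minus sedentary difference in covered length had opposite signs in 2 arms at 8 of 9 members for H4K8ac and 5 of 5 for H3K27me3. Most genes did the same, 60.9% and 74.1% of those with a peak. These differences were not tested between arms, since each arm has 1 list per condition, and differences of the lists' own lengths had opposite signs too. For H4K8ac in SIT, left and right, the differences in bp were 5153, 4096 and −1264 at Fibcd1, 2539, 772 and −449 at Mpped1, 3773, −1625 and 2556 at Bok, 3917, −554 and −421 at Nectin3, and 1486, −2051 and 1009 at Rgs14. The other H4K8ac genes differed in 2 arms each, with the same sign at Pcp4 alone (767 in SIT and 1472 in right). The rest differed by 1721 in SIT and −985 in left at Wfs1, by 3338 in SIT and −418 in right at Spink8, and by −1377 in SIT and 913 in left at Iyd.

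For H3K27me3 in SIT, left and right, they were 951, −2307 and −7433 bp at Fibcd1, 12090, 1623 and −25265 at Pou3f1, 34389, 14791 and −60555 at Mpped1, 12676, 6878 and −17317 at Nectin3, and 8370, 3600 and −2493 at Pcp4. Mpped1 differed by the most bases in each arm for this mark.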

How the results depend on the processing

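No paired analysis was possible because there is 1 list for each group and no value for a single sample, so that no replicate can be left out or matched. Shares in parentheses are of all genes in the same setting, and for a gene in 1 condition alone of the genes in either list. With promoter peaks alone, H4K8ac members numbered 2 in exercised left (15.0%), 3 in sedentary left (38.0%) and 3 in sedentary right (28.3%), and H3K27me3 members 3 in exercised SIT (21.0%), 2 in sedentary SIT (13.2%), 2 in sedentary left (14.9%) and 3 in sedentary right (19.6%). The exercised list alone then held 0 for H4K8ac in SIT (43.7%) and left (5.94%) and 1, Pcp4, for H3K27me3 in SIT (38.6%), left (20.7%) and right (4.97%). The sedentary list alone held 0 for H4K8ac in SIT (12.6%) and for H3K27me3 in left (11.2%). Other genes stood behind counts that held, Nectin3 for H4K8ac in sedentary left (62.9%) and right (45.1%) alone and Fibcd1 and Pou3f1 for H3K27me3 in sedentary right alone (45.7%), and Mpped1 joined Pcp4 and Rgs14 for H4K8ac in exercised right alone (13.2%). Without intergenic peaks, Wfs1, Iyd and Fibcd1 left H4K8ac, so the exercised and sedentary sides were 0 in SIT (32.0% and 10.8%) and left (4.25% and 55.2%) and the sedentary side 0 in right (39.2%), while H3K27me3 kept 1 (Fibcd1) on the sedentary side in right (45.3%).

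With equal numbers of the widest peaks, H4K8ac members numbered 2 in sedentary left (30.1%) and 2 in sedentary right (32.6%). The exercised list alone then held 4 in left (23.9%) and 4 in right (25.6%), and the sedentary list alone 0 (24.0% and 22.1%). H3K27me3 members numbered 3 in exercised SIT (23.2%), with 2 (Fibcd1, Pcp4) in the sedentary list alone (540 of 4485 genes). With the widest 50%, H4K8ac members numbered 3 in sedentary SIT (34.5%), sedentary left (39.9%) and exercised right (20.7%) and 1 in sedentary right (30.6%). There were 4 in exercised SIT alone (29.6%), 2 in exercised left alone (5.50%) and 0 in sedentary right alone (41.2%). Counts that held had other genes behind them, Mpped1 and Bok in exercised right alone (13.4%) and Bok in sedentary left alone (56.3%). H3K27me3 members numbered 3 in sedentary SIT (14.3%) and 1 in exercised right (13.3%), with 2 in exercised SIT alone (47.1%), 0 in sedentary left alone (10.2%) and 4 in sedentary right alone (46.8%). By overlap, over 16598 genes, H3K27me3 members numbered 3 in sedentary SIT (17.1%), left (19.3%) and right (25.3%), with 1 (Pcp4) in the exercised list alone in SIT (37.2%), left (18.9%) and right (1.36%), and Fibcd1 and Pou3f1 in sedentary right alone (43.5%). H4K8ac then had 1 (Fibcd1) in exercised SIT alone (32.4%), 0 in sedentary SIT (9.67%), exercised left (3.94%) and sedentary right alone (38.2%), and 1 in sedentary left alone (54.7%), Fibcd1, which assignment put in exercised left alone. The members listed only in 1 condition thus depended on each of these 5 choices of peaks.

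The mean difference over arms turned at Nectin3 H4K8ac to −646 bp with promoter peaks (980.7 bp with all), at Iyd H4K8ac to 157.7 bp with the widest peaks and 9.29 bp per Mb (−154.7 bp), at Nectin3 H3K27me3 to −2143 bp and −16.2 bp per Mb (745.7 bp), and at Pcp4 H3K27me3 to −3871 bp with the widest peaks (3159 bp). Other ways of joining peaks moved no count of regions by over 1.5 times. In an alternative chosen after seeing the data, without the exercised separate lists, all 5 H3K27me3 genes were in every remaining list, against 3 before, and H4K8ac stayed at 3. Depth limits every absence here: a gene without a peak may have signal under the caller's threshold.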
